A study of Homo sapiens with 8 samples.

Results

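Long noncoding RNAs named as intergenic transcripts (LINC symbols) or as antisense RNAs (symbols ending in AS and a number) were measured on Agilent 1-colour arrays in HCT-116, a human colorectal cancer cell line. A probe that is not a control was selected on the form of its gene name and on the detection flags of the scanner software, which had to mark it as well above background on each array of 1 or more groups. By this rule 131 genes, measured with 183 probes, were kept of 264 such genes (398 probes) among the 50599 probes of the array. LINC transcripts made up 63 of the genes (96 probes) and antisense RNAs 68 (87 probes).

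The 8 arrays came from 4 groups of 2, all grown in the same serum-containing medium. WT was parental HCT-116 with no treatment. WT+NU6102 was the same line after 24 h in 20 µM NU6102, a purine inhibitor of the cell cycle kinases CDK1 and CDK2. CDK2 KO was an untreated HCT-116 line in which the CDK2 gene had been knocked out. R50 was a line of HCT-116 cells grown from the start, and passaged, in 50 µM NU6102. The methods for the arrays do not say whether the drug was present when the R50 RNA was taken. Whether the knockout and the resistant line each derive from 1 clone, and whether duplicates came from separate cultures, is not given in the sources used here, so p-values measure only the spread between these arrays, which may be technical. The slide of an array was taken here from its scan date alone. WT and WT+NU6102 shared 1 scan date and CDK2 KO and R50 another, and each scan date is called a slide. Wherever slide is written below it means scan date, and the physical slide of an array was not read from any other source. The comparisons of WT+NU6102 with WT and of R50 with CDK2 KO were therefore made within a slide. In the remaining comparisons the groups cannot be told apart from their slides.

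A LINC gene lies in the interval between protein-coding genes and is transcribed, capped and usually spliced like a messenger RNA, without a long open reading frame. An antisense RNA is read from the strand opposite the gene whose name it carries, and many start at or near the promoter of that gene. Both kinds of RNA tend to be expressed at lower levels and in fewer cell types than messenger RNAs, and some act on chromatin or on transcription close to where they are made, on microRNAs, or on RNA stability. Several have been studied in colorectal tumours, among them LINC00152 (CYTOR), LINC00460, LINC00511 and HOXA11-AS1.

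Names are those of the array's design. Of the 183 probes, 148 matched a RefSeq record by accession, and 41 of these, from 28 genes, carry another symbol there. LINC00085 is listed there as SPACA6, a protein-coding gene, and the name LINC00087 is listed as an older name of both SMIM10L2A and SMIM10L2B, a pair of similar protein-coding genes, so these transcripts are kept here under the array's names and their place among noncoding RNAs is uncertain.

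The probes below are 60 bases long and are shown because the results turn on them. LINC00173 had probes that differed along the gene, and those of LINC00263 and LINC00339 moved together. MCF2L-AS1 was the largest rise with the drug, LINC00029 was not above background in CDK2 KO, and LINC00511 was higher in R50. Capitals mark AATAAA, the polyadenylation signal, which was searched on the probe's own strand only. It occurred in 20 of the 183 probes (10.9%) and in 7.67% of the 28677 probes tested, and a match is a description of the letters only.
LINC00173, first probe: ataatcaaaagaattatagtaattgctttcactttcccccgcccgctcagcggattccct
LINC00173, middle probe: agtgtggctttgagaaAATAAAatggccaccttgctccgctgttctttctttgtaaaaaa
LINC00173, last probe: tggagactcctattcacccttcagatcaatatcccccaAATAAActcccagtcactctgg
LINC00263, first probe: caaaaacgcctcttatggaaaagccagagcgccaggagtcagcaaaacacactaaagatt
LINC00263, last probe: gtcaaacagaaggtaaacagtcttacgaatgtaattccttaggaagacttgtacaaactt
LINC00339, first probe: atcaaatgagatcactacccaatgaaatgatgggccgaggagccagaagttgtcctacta
LINC00339, middle probe: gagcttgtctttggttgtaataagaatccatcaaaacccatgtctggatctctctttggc
LINC00339, last probe: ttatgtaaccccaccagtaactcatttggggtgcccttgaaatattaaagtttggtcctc
MCF2L-AS1: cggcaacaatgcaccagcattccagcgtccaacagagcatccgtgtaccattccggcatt
LINC00029: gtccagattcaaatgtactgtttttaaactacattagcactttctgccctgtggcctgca
LINC00511, brighter probe: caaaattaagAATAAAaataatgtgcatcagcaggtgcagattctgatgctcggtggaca
LINC00511, dimmer probe: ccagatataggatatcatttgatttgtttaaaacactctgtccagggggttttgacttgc

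In hg19, the build of the scanner files, the LINC00173 probes lay at chr12:116972087-116972146, chr12:116973091-116973150 and chr12:116974257-116974316 on the plus strand. The LINC00263 probes were at chr10:102133690-102133749 and chr10:102142863-102142922, and those of LINC00339 at chr1:22356857-22356916, chr1:22357351-22357410 and chr1:22357651-22357710, all on the plus strand. On the minus strand were MCF2L-AS1 at chr13:113622201-113622260, LINC00029 at chr20:61665622-61665681, and LINC00511 at chr17:70594182-70594241 and chr17:70594625-70594684.

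Levels are given as log2 of the processed signal minus the array's 75th percentile, so that 0 is the 75th percentile of that array, and differences are log2 fold changes with their standard error (SE) and an adjusted p from limma. A probe was called when the adjusted p was under 0.05 and the absolute log2 fold change at least 1. Where a probe was well above background on both arrays of 1 group and on none of the other, the difference is a bound, written as "at least". Between 154 and 176 of the 183 probes were well above background on any array, 133 were so on all 8, and duplicate arrays differed at the median kept probe by 0.104 to 0.147. The detection rule itself chose 20 probes through 1 group alone, 11 of them through CDK2 KO, and these had to differ between groups, so counts are also given for the 133. Just inside the rule were 4 probes above background on 2 arrays, PPP2R3B-AS1, LINC00112, SLC25A5-AS1 and SAMD12-AS1, all through CDK2 KO, with mean levels there from -4.81 to -4.12. Just outside it were 9 probes above background on 3 arrays but on both arrays of no group. The CDK2 probe, at chr12:56365789-56365848, read -0.78 and -0.77 in WT and -1.58 and -1.53 in CDK2 KO, a difference of -0.78 (SE 0.04, adjusted p = 0.000271). It was still well above background in the knockout, and whether it lies in the deleted part is not given in the sources used here. Of the epithelial markers 7 of 8 were tested and all were above background on all 8 arrays, with a summed level 472 to 483 times the 75th percentile in WT, 554 to 575 in WT+NU6102, 594 to 617 in CDK2 KO and 736 to 740 in R50. Of 6 fibroblast markers only COL1A1 was tested (0.131 and 0.143 in WT, 0.0774 and 0.0857 in WT+NU6102, 0.313 and 0.324 in CDK2 KO, 0.21 and 0.224 in R50). Of 6 blood cell markers 4 were tested, 2 of them above background on all arrays (summed level 0.502 to 0.97). The part of these markers in the results was not tested. RNA was taken from whole cultures, so a transcript lost from some cells and one lowered in all cells cannot be told apart.

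Across the 4 groups, 29 of the 183 probes differed in limma's F-test at an adjusted p under 0.001 (15.8%), against 21.1% of all 28677 tested probes, which had passed the same detection rule. On all 8 arrays the share was 19.5% of 133 against 23.1%. That count fell to between 2 and 7 when any single array, of any group, was left out, so it rests on all 8 arrays together. In the 5 comparisons, 31 of the 131 genes were called at least once by at least 1 probe, and 100 in none. Against WT, 113 genes were not called in any of the 3 conditions by their brightest probe, and 9 were called as lower with NU6102 and in no other condition. These counts of genes were not made over all tested genes, so they carry no background share. The comparisons with WT share the WT arrays.

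**Figure D1:**
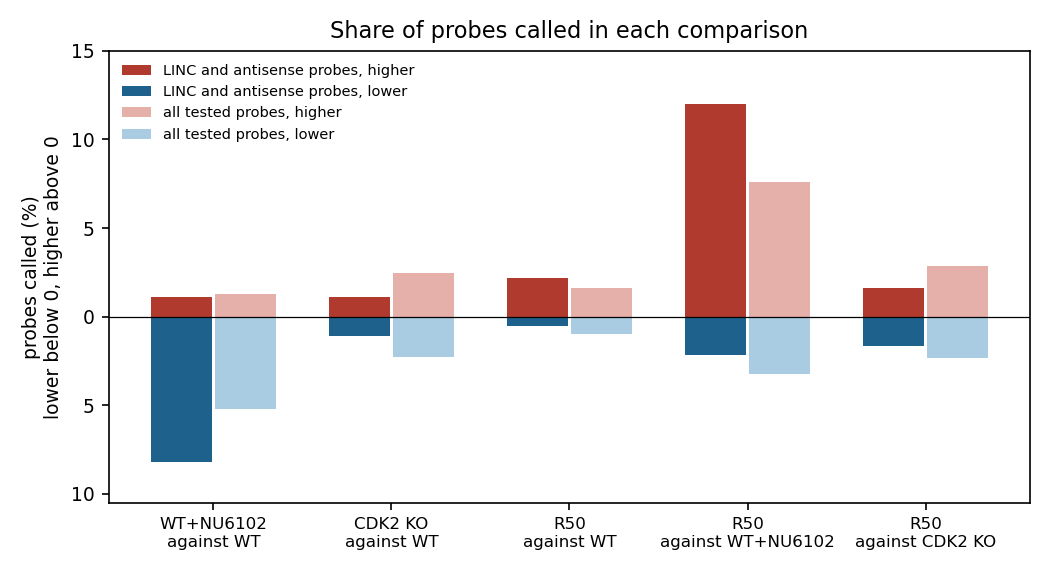
Percentage of probes called higher and lower in each of the 5 comparisons, for the kept LINC and antisense probes (183) and for all tested probes (28677). The bars of the kept probes are longest for R50 against WT+NU6102 higher (12%) and WT+NU6102 against WT lower (8.20%), and under 2.5% in every other direction.

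With NU6102, LINC and antisense RNAs that moved mostly fell. Against WT, 15 of the 183 probes fell (8.20%), where 5.22% of all tested probes did, and 2 rose (1.09% against 1.27%). Of the 133 probes above background on all arrays, 11 fell (8.27% against 3.52% of all such probes) and 2 rose (1.5% against 1.11%). Of the 15 falls 8 were of LINC and 7 of antisense probes, and both rises were of antisense RNAs. LINC00085, LINC00087 and LINC00173 gave 2 of the LINC falls each, and the names LINC00085 and LINC00087 are those with protein-coding records. By the brightest probe of each gene, 10 of 131 genes fell (7.63%) and 2 rose (1.53%). No such share by gene was computed over all tested genes. The median log2 fold change over the kept probes was -0.00, and 0.03 over all tested probes. Under quantile normalization the split was 4 rises and 13 falls. With normexp, a background correction that shrinks dim differences, 7 of the 17 calls were kept. MRVI1-AS1, ZNF503-AS2, ST7-AS1 and LINC00165 were among those lost.

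MCF2L-AS1 showed the largest rise. It is read opposite MCF2L, which encodes a guanine nucleotide exchange factor. Its levels were -0.16 and -0.20 in WT, 1.19 and 1.22 with NU6102, 0.13 on both CDK2 KO arrays, and 0.18 and 0.32 in R50. The treated arrays lay above all others, and the WT arrays below all others. The difference with NU6102 was 1.39 (SE 0.06, adjusted p = 0.000139), while CDK2 KO and R50 differed from WT by 0.31 and 0.43, under the minimum for a call. ZNF503-AS2, opposite the zinc finger repressor gene ZNF503, was the other rise, from -2.04 and -1.97 in WT to -0.82 and -0.91 with NU6102 (1.14, SE 0.13, adjusted p = 0.00121). Its levels in CDK2 KO, -1.76 and -2.14, enclosed those of WT, and R50 read lower at -2.30 and -2.37.

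LINC00085 and LINC00087, the transcripts with protein-coding records, were among the largest falls. The brightest LINC00085 probe (chr19:52208352-52208411) read 1.12 and 1.23 in WT, -0.26 and -0.50 with NU6102, 0.63 and 0.60 in CDK2 KO, and 1.28 and 1.15 in R50. It fell by 1.55 with the drug (SE 0.10, adjusted p = 0.000263). SPACA6 encodes a sperm membrane protein needed for fertilization. The brightest LINC00087 probe (chrX:134229057-134229116) read 0.04 and 0.12 in WT, -1.29 and -1.41 with NU6102, 0.01 and -0.02 in CDK2 KO, and 0.26 and 0.27 in R50, a fall of 1.43 with the drug (SE 0.06, adjusted p = 0.000122). For both genes the treated arrays alone were low, apart from an intermediate CDK2 KO value for LINC00085 (-0.56, adjusted p = 0.0102).

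Among antisense RNAs, the largest falls were those of MRVI1-AS1 and MYLK-AS1. MRVI1-AS1 (IRAG1-AS1) lies opposite MRVI1, the gene of a calcium release regulator that is a target of cGMP-dependent kinase. It read -1.91 and -1.76 in WT, -3.32 and -3.35 with NU6102, -2.03 and -1.90 in CDK2 KO and -2.02 and -1.97 in R50. The fall with NU6102 was 1.50 (SE 0.07, adjusted p = 0.00016), and the 6 other arrays lay between -2.03 and -1.76. MYLK-AS1, opposite the gene of myosin light chain kinase, read -1.11 and -1.20 in WT, -2.48 and -2.83 with NU6102, -0.41 and -0.69 in CDK2 KO and -1.45 and -1.53 in R50. It too fell by 1.50 with the drug (SE 0.14, adjusted p = 0.000806), but was higher in CDK2 KO than in WT by 0.61 (adjusted p = 0.0277).

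The other falls with NU6102 among antisense RNAs above background on all arrays were MFI2-AS1 (-1.36, SE 0.12) and ST7-AS1 (-1.21, SE 0.07), and among LINC transcripts LINC00165 (-1.04, SE 0.07). These 3 lie outside the rule for named genes and were chosen after their values were seen. ST7-AS1 read -1.49 and -1.52 in WT, -2.79 and -2.64 with NU6102, -0.86 and -0.79 in CDK2 KO, and -1.41 and -1.51 in R50, so that the WT and R50 arrays overlapped, while CDK2 KO lay above and the treated cells below. The difference of CDK2 KO from WT was 0.68 (adjusted p = 0.00178). LINC00466 was above background on both WT arrays and on neither treated array, at least 1.54-fold lower with NU6102 (adjusted p = 0.0485), a call kept in 1 of the 8 fits that left out an array. The calls of ARSD-AS1 and BDNF-AS1 as lower carry no fold, because neither group was well above background.

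Over the 11 probes that fell with NU6102 and were above background on all arrays, R50 differed from WT by -0.41 (LINC00165) to 0.19 (LINC00087), with a median of -0.18, and CDK2 KO by -0.87 (LINC00173) to 0.68 (ST7-AS1), with a median of -0.33. None of the 11 was called in either of these 2 comparisons. R50 against WT+NU6102 gave 0.63 (LINC00165) to 1.70 (LINC00085). These comparisons share arrays.

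**Figure D2:**
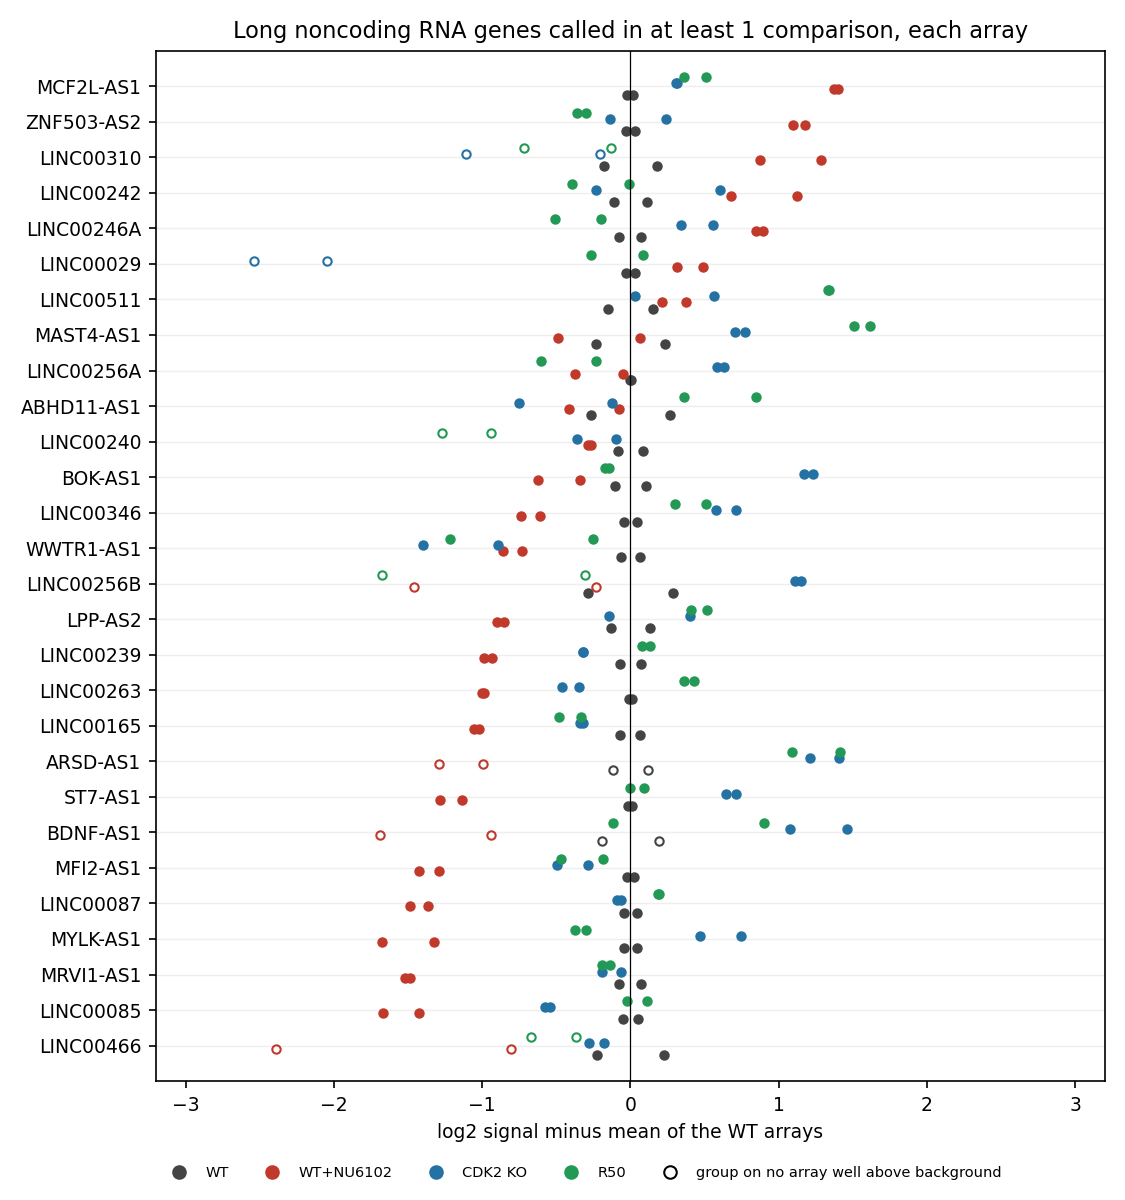
Level on each of the 8 arrays minus the WT mean (log2) for the 28 genes whose brightest probe was called in at least 1 comparison. Open circles mark groups in which the probe was well above background on no array. For MRVI1-AS1, LINC00087 and LINC00085 the NU6102 points lie 1.3 to 1.7 below the WT mean.

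Probes of 1 gene did not always move together. Of the 31 genes with several kept probes, all probes had the same sign with NU6102 in 15, and in 6 (DNAJC27-AS1, LINC00085, LINC00087, LINC00173, LINC00476 and TTC28-AS1) the probes spanned at least 1 on the log2 scale. The median span was 0.51. No gene had probes called in opposite directions in any of the 5 comparisons. DNAJC27-AS1 fell by 1.25 (SE 0.18, adjusted p = 0.00319) at a probe upstream of its brightest, which read 0.31. The differences between probes of a gene were not tested.

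LINC00173, chosen for display after its values were seen, differed from probe to probe. The first probe read 0.69 and 0.84 in WT and 0.87 and 0.96 with NU6102 (0.16, SE 0.08, adjusted p = 0.175). The middle probe, 1004 bases further on in the genome, read 0.65 and 1.09 in WT and -0.23 and -0.27 with NU6102 (-1.12, SE 0.14, adjusted p = 0.00176). The last probe, 2170 bases from the first, read 0.80 and 1.24 in WT and -0.75 and -0.88 with NU6102 (-1.84, SE 0.16, adjusted p = 0.00057). The fall was thus larger at each step along the genome, while the first probe stayed within 0.3 over the arrays of WT and WT+NU6102. The last probe is assigned to another RefSeq transcript of LINC00173 than the first and middle probes. CDK2 KO values against WT were 0.09, -0.53 and -0.87 in the same order, none of them called. An unnamed transcript on the same strand, XLOC_009897, whose probe begins 150 bases beyond the last one, was above background on both WT arrays and on neither treated array, at least 2.13-fold lower with NU6102 (adjusted p = 0.012). The AATAAA letters were in the middle and last probes and not in the first, as the sequences above show.

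LINC00087 and LINC00085 each had a probe that went against the others. In LINC00087 the probe 3281 bases upstream of the called pair read -1.45 and -1.39 in WT and -1.05 and -0.95 with NU6102, a difference of 0.42 (adjusted p = 0.018), against -1.43 and -1.38 for the called probes. Its difference between R50 and WT+NU6102 was -0.64 (adjusted p = 0.00284), against 1.61 and 1.56 for the called probes. In LINC00085 a probe that shares 10 bases with the brightest one, but is assigned to another sequence record, differed by 0.12 with NU6102 (adjusted p = 0.634). Its difference between R50 and WT+NU6102 was 0.04 (adjusted p = 0.884), against 1.59 for the brightest probe. A probe 1863 bases upstream of the brightest fell by 1.88 with NU6102 (SE 0.12, adjusted p = 0.000248).

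LINC00263 (OLMALINC) and LINC00339 behaved alike at all their probes. The LINC00263 probes lay 9173 bases apart and differed from WT with NU6102 by -0.99 and -1.0, neither of them called. The first read -0.13 and -0.15 in WT, -1.13 and -1.14 with NU6102, -0.60 and -0.49 in CDK2 KO, and 0.22 and 0.29 in R50, the order being R50, WT, CDK2 KO and WT+NU6102 with no overlap. Both were called as higher in R50 than in WT+NU6102, by 1.39 (SE 0.06, adjusted p = 4.54e-05) and 1.43 (SE 0.09, adjusted p = 0.000115). The 3 LINC00339 probes, chosen for display after their values were seen, read -0.92, -0.90 and -0.85 in CDK2 KO against WT and between 0.05 and 0.10 with NU6102. On the last of them the CDK2 KO arrays were at -0.09 and 0.02 and all other arrays between 0.66 and 0.91. OIP5-AS1 (cyrano), a conserved RNA known for driving the decay of the microRNA miR-7, differed with NU6102 by 0.00 at its first probe and by 0.68 (adjusted p = 0.00144) at the brighter probe 14204 bases further on.

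**Figure D3:**
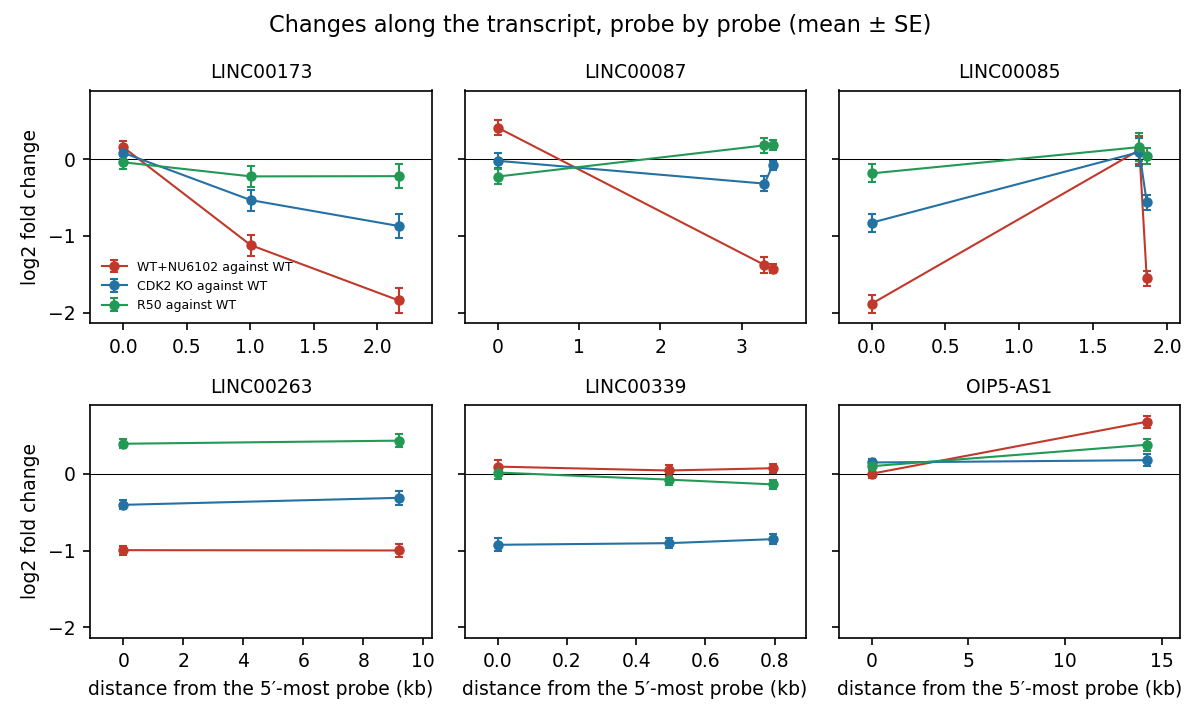
Log2 fold change of each probe with its standard error, in WT+NU6102, CDK2 KO and R50 against WT, by the distance (kb) from the 5′-most probe in the direction of transcription for LINC00173, LINC00087, LINC00085, LINC00263, LINC00339 and OIP5-AS1. With NU6102 the LINC00173 probes step down from 0.16 to -1.84, whereas the LINC00263 probes both lie near -1.

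Few of these RNAs were called in CDK2 KO against WT. With no minimum fold, 23 of 183 probes were higher and 19 lower at limma's adjusted p under 0.05 (4527 and 4388 of all 28677). Called were 2 of 183 probes as higher (1.09% against 2.44% of all tested probes) and 2 as lower (1.09% against 2.3%). None of the 133 probes above background on all arrays was called by limma, against 3.26% of all such probes. In a limma fit of such probes alone, 54 of the 133 were at an unadjusted p under 0.05. The median was 0.05 (0.01 over all tested probes). All 4 calls were of dim probes and were lost when background was corrected by normexp, which shrinks dim differences. The knockout and WT were on different slides.

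LINC00029 gave the largest difference. It read -3.47 and -3.41 in WT, -3.13 and -2.95 with NU6102, -5.98 and -5.49 in CDK2 KO, and -3.71 and -3.36 in R50. It was above background on every array except the 2 of CDK2 KO, where it was at least 3.22-fold lower than in WT (adjusted p = 0.000892) and, within the slide, at least 3.02-fold lower than in R50 (adjusted p = 0.000902). BHLHE23, a transcription factor gene 28.1 kb away and the nearest gene tested, differed by -0.19 in CDK2 KO. BOK-AS1, opposite the gene of a pro-apoptotic BCL2 family member, was the clearest rise. It read -4.30 and -4.08 in WT, -4.53 and -4.81 with NU6102, -3.02 and -2.96 in CDK2 KO and -4.36 and -4.33 in R50. CDK2 KO was above all other groups, by 1.20 over WT (SE 0.12, adjusted p = 0.00139), and R50 was 1.36 below CDK2 KO (SE 0.12, adjusted p = 0.000807). ARSD-AS1 was above background on both CDK2 KO arrays and on no WT array, at least 1.34-fold higher (adjusted p = 0.00341). WWTR1-AS1 fell by 1.15 (SE 0.33, adjusted p = 0.0498), a call kept in 2 of 8 fits without an array.

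In R50 against WT 5 probes were called. With no minimum fold, 13 of 183 probes were higher and 11 lower at limma's adjusted p under 0.05 (2805 and 3681 of all 28677). Of the 183, 4 were called higher (2.19% against 1.64%) and 1 lower (0.546% against 0.952%). Among the 133 on all arrays 1 was called higher (0.752% against 1.01% of all such probes) and 0 lower (against 0.543%). In a limma fit of such probes alone, 41 of the 133 were at an unadjusted p under 0.05. The median was -0.03, and -0.04 over all tested probes. All 5 calls were lost with normexp, and the groups lay on different slides. MAST4-AS1, opposite a microtubule-associated kinase gene, was above background on every array. It read -4.05 and -4.51 in WT, -4.77 and -4.21 with NU6102, -3.58 and -3.51 in CDK2 KO, and -2.67 and -2.77 in R50. The R50 arrays were the highest, 1.56 above WT (SE 0.22, adjusted p = 0.00868).

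LINC00511, an RNA reported as raised in several carcinomas, was higher in R50 at both of its probes. The brighter one read -4.87 and -4.57 in WT, -4.35 and -4.51 with NU6102, -4.69 and -4.16 in CDK2 KO and -3.39 and -3.38 in R50. R50 was 1.34 above WT (SE 0.19, adjusted p = 0.00871) and 1.04 above CDK2 KO (SE 0.19, adjusted p = 0.0107), and its arrays lay above all others. The dimmer probe was above background on both R50 arrays, on 1 CDK2 KO array and on no other, at least 2.03-fold higher in R50 than in WT (adjusted p = 0.0215). Without WT replicate 1, the call of R50 against WT was lost at both probes, with a value of 1.19 at the brighter one. Over the 8 fits without an array it was kept in 7 and 5. SLC39A11, 47.5 to 48.0 kb away on the same strand, differed by 0.05 in R50. LINC00240, near the histone genes of chromosome 6, was the only fall called, with levels of -3.53 and -3.36 in WT and -4.38 and -4.72 in R50. It was above background on no R50 array and at least 2.15-fold lower there (adjusted p = 0.00632). ARSD-AS1, above background on 1 of the 2 R50 arrays and on no WT array, was called as higher (adjusted p = 0.00676), with no fold given.

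R50 was a line kept in the drug at 50 µM and WT+NU6102 had 24 h at 20 µM, and this comparison gave the most calls. In R50 22 probes were higher (12% against 7.61%) and 4 lower (2.19% against 3.26%). Among the 133 on all arrays 15 were higher (11.3% against 5.77% of all such probes) and 2 lower (1.5% against 3.05%). The median was -0.04, and -0.05 over all tested probes. With normexp 6 probes were called in place of 26. Dose, length of exposure, line and slide all differ between these groups and cannot be told apart.

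The largest rises on all arrays were those of MAST4-AS1 (1.77, SE 0.22), LINC00087 (1.61, SE 0.06), LINC00085 (1.59, SE 0.10) and LINC00263 (1.39, SE 0.06). MRVI1-AS1 (1.34), ST7-AS1 (1.26), MYLK-AS1 (1.16) and MFI2-AS1 (1.03) were called too. Of the falls, ZNF503-AS2 was lower in R50 by 1.47 (SE 0.13, adjusted p = 0.000316) and LINC00246A by 1.22 (SE 0.13, adjusted p = 0.000705) at its brighter probe. The other LINC00246A probe read -0.18 (adjusted p = 0.588) and was not called. LINC00246A (FAM226A) has a closely related copy, FAM226B, so its signal may come from either. It read -2.65 and -2.80 in WT, -1.83 and -1.87 with NU6102, -2.16 and -2.38 in CDK2 KO, and -3.23 and -2.92 in R50, highest with the drug and lowest in R50. LINC00310, above background on both treated arrays and on none of R50, was at least 2.54-fold lower (adjusted p = 0.017), and the fourth fall was that of LINC00242 (-1.10, SE 0.32, adjusted p = 0.031), kept in 3 of 8 fits without an array.

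Within their slide, R50 against CDK2 KO had 3 probes called higher (1.64% against 2.85%) and 3 lower (1.64% against 2.36%). Of the 133 on all arrays 1 was called, LINC00256A (0.752% against 3.45% of all such probes). With no minimum fold, 24 of 183 probes were higher and 30 lower at limma's adjusted p under 0.05 (4349 and 5527 of all 28677). The median was -0.08, and -0.06 over all tested probes. All 6 calls were lost with normexp. Beside LINC00029, LINC00511 and BOK-AS1 these were ABHD11-AS1 (1.04, SE 0.31, adjusted p = 0.0485, kept in 1 of 8 fits without an array), LINC00256A and LINC00256B. The last 2 (FAM225A and FAM225B) are related neighbours on chromosome 9 and may share signal. LINC00256A read -3.32 and -3.37 in CDK2 KO and -4.19 and -4.56 in R50 (-1.03, SE 0.15, adjusted p = 0.00523), with WT at -3.95 and -3.96. LINC00256B was above background on both CDK2 KO arrays and on none of R50, at least 2.7-fold lower in R50 (adjusted p = 0.0379), a call kept in 3 of 8 fits without an array and lost in a fit of the 4 arrays of that slide alone.

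**Figure D4:**
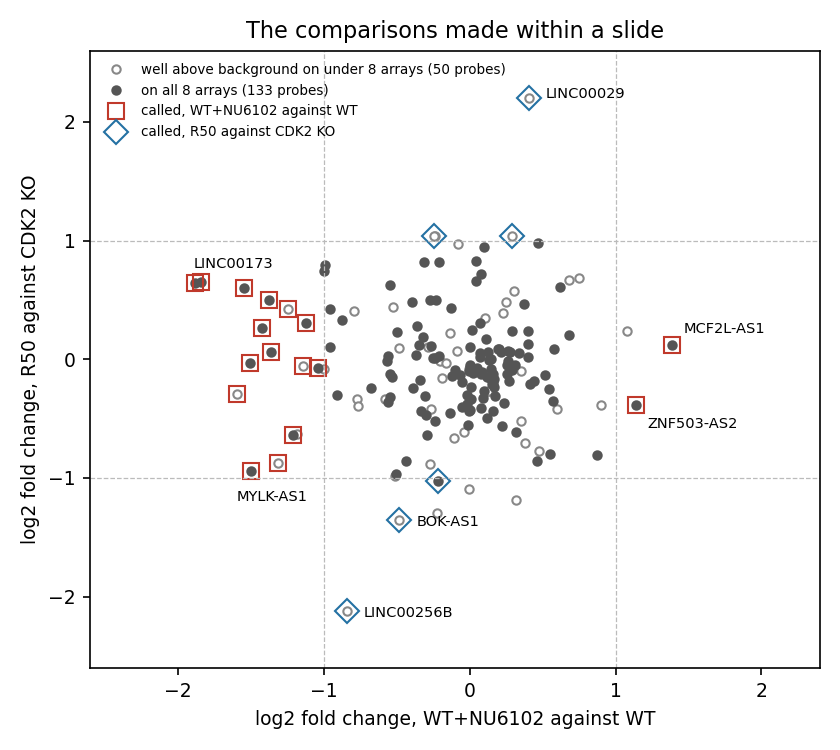
Log2 fold change of each kept probe in the comparisons made within a slide, WT+NU6102 against WT (horizontal) and R50 against CDK2 KO (vertical), which share no arrays. MCF2L-AS1 stands to the right at 1.39, the falls with NU6102 to the left, LINC00029 at the top, and BOK-AS1 (-1.36) and LINC00256B at the bottom.

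Each antisense RNA was set beside the gene whose name it carries. Of 68 antisense genes 62 had a tested partner, and in 60 of these pairs the probes lay on opposite strands. With NU6102, antisense and partner were both called in 3 pairs, each in the same direction. MRVI1-AS1 and MRVI1 gave -1.50 and -1.61, MYLK-AS1 and MYLK gave -1.50 and -1.06, and ZNF503-AS2 and ZNF503 gave 1.14 and 1.23. The antisense RNA alone was called in 5 pairs, the partner alone in 4 and neither in 50. MCF2L read -0.55 (adjusted p = 0.0012) at its brightest probe beside the rise of MCF2L-AS1, but 0.18 (adjusted p = 0.357) at another probe. ST7 read 0.26 and MFI2 -0.38 beside the falls of their antisense RNAs, while another MFI2 probe read 0.04 (adjusted p = 0.767). ZNF503-AS1, a separate antisense RNA of ZNF503, read -0.57 at its brightest probe, beside the rise of ZNF503. ZEB1, a transcription factor of epithelial-mesenchymal transition, rose by 1.31 (adjusted p = 0.000421) while ZEB1-AS1 differed by 0.07 at its brighter probe and by 0.58 (adjusted p = 0.0142) at the other, neither of them called. Across the 62 pairs the signs were the same in 54.8%, a description over pairs measured on the same arrays.

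**Figure D5:**
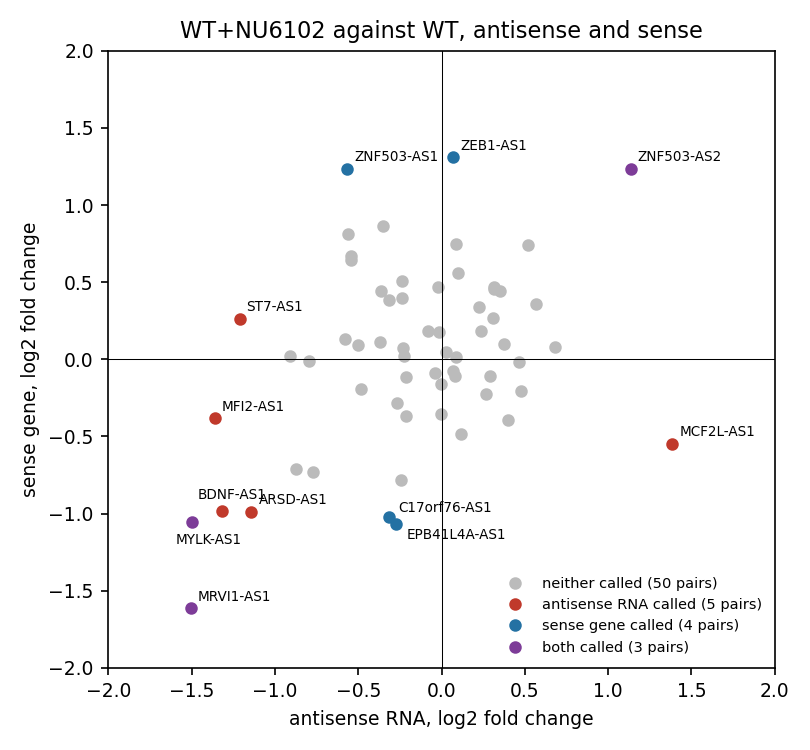
Log2 fold change with NU6102 of each antisense RNA (horizontal) and of its sense partner (vertical) for 62 pairs. MRVI1-AS1, MYLK-AS1 and ZNF503-AS2 lie where both changed the same way, and MCF2L-AS1 (1.39, with the brightest MCF2L probe at -0.55) lies at the lower right.

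In CDK2 KO against WT, both members were called in 1 pair, the antisense RNA alone in 2, the partner alone in 4 and neither in 55. WWTR1-AS1 and WWTR1, the gene of the Hippo pathway coactivator TAZ, were the pair called together, at -1.15 and -2.04. BDNF, a neurotrophin gene, fell by 1.55 (adjusted p = 7.77e-05) where BDNF-AS1, above background on no WT array, was at least 2.04-fold higher (adjusted p = 0.0691), which was not called. MRVI1 fell by 1.83 (adjusted p = 4.22e-05) where MRVI1-AS1 read -0.13. PVRL3, the nectin-3 gene, rose by 1.75 where PVRL3-AS1 read 0.69. MFI2 fell by 1.02 at its brightest probe, where MFI2-AS1 read -0.39, but another MFI2 probe read 0.21 (adjusted p = 0.195). The MRVI1 pair was thus called together with the drug, and by the sense gene alone in the knockout; that difference was not tested. In R50 against WT only MAST4-AS1 and MAST4 were both called, at 1.56 and 1.32. In R50 against WT+NU6102 both members of 6 pairs were called, all in the same direction. The antisense RNA alone was called there in 3 pairs, the partner alone in 9 and neither in 44, and the signs were the same in 51.6%. In R50 against CDK2 KO both members were called in 0 pairs, the antisense RNA alone in 2, the partner alone in 5 and neither in 55. Over all tested probes, 7.61% were called higher and 3.26% lower in R50 against WT+NU6102. No share over other pairs of genes was computed for any comparison, so the counts of pairs are a description only.

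Among RNAs of known role, few passed the threshold. Of 38 characterised LINC and antisense RNAs listed, 11 were kept, and of these LINC00511 alone was called in any comparison. Their median with NU6102 was 0.07, and 0.04 over all genes. LINC00152 (CYTOR), which acts in proliferation and at the cytoskeleton, read 1.51 and 1.60 in WT, 2.16 and 2.19 with NU6102, 0.73 and 0.79 in CDK2 KO and 1.39 and 1.36 in R50. It was highest with the drug (0.62, adjusted p = 0.000567) and lowest in the knockout (-0.79, adjusted p = 0.000437), both under the minimum for a call. A sequence related to LINC00152 exists elsewhere on chromosome 2, MIR4435-2HG, and may share its signal. LINC00460 read -0.65, -0.61 and -0.78 at its 3 probes in R50 against WT. PCNA-AS1, opposite the gene of the DNA polymerase clamp, differed with NU6102 by 0.32, as PCNA did by 0.47, and by -0.61 in R50 against CDK2 KO. EPB41L4A-AS1, the host of a small nucleolar RNA, differed with NU6102 by -0.27 and in R50 by 0.39, the latter 0.67 above WT+NU6102. MCM3AP-AS1 differed with NU6102 by -0.54. LINC00467 differed by 0.20 with NU6102, and ZEB1-AS1 by -0.33 to 0.58 over its 2 probes in the 3 comparisons with WT. LINC00472, above background on both WT arrays, on 1 treated array and on no R50 array, read -1.18 with NU6102 (adjusted p = 0.135) and was at least 1.70-fold lower in R50 than in WT (adjusted p = 0.168), neither of them called.

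Of 6 loci listed as coding for a microprotein, LINC00493, whose small protein lies in mitochondria, was the only 1 kept, and it differed from WT by 0.22 with NU6102, -0.05 in CDK2 KO and 0.01 in R50. Of 16 antisense RNAs of the HOX clusters, HOXA11-AS1 alone was kept. It read -0.79 and -0.85 in WT, -1.36 and -1.41 with NU6102, -0.83 and -0.89 in CDK2 KO and -1.12 and -1.31 in R50, a difference with NU6102 of -0.56 (adjusted p = 0.00251) that was not called.

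Long noncoding RNAs with other kinds of names were set beside these as a list. Of 35 listed, 24 were tested, and with NU6102 2 rose and 2 fell (1.27% and 5.22% of all tested probes). NEAT1, the scaffold of paraspeckles, fell by 1.34 (SE 0.11, adjusted p = 0.000447), and UCA1, first described in urothelial carcinoma, fell by 1.64 (SE 0.05, adjusted p = 8.38e-05). MIR31HG rose by 1.20 (adjusted p = 0.00159) and DLEU1 by 1.01 (adjusted p = 0.000409). MALAT1 differed by 0.01. In CDK2 KO 0 rose and 2 fell (2.44% and 2.3% of all tested probes), MIR31HG (-1.17) and HOTAIRM1 (-1.10). In R50 against WT, UCA1 (2.12, adjusted p = 8.21e-05) and the imprinted H19 (1.42, adjusted p = 0.00363) rose and HOTAIRM1 fell (-1.22). Of all tested probes, 1.64% rose and 0.952% fell there. UCA1 thus fell with the drug given for 24 h and was higher in the line kept in it.

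The enzymes that trim or degrade such RNAs in the nucleus, the exosome with its adaptor and cap-binding complexes, were listed as 25 genes, all tested. With NU6102 their median was 0.35, and 0.04 over all genes. In limma 1 was called as higher, the poly(A) polymerase PAPD5 (1.03, adjusted p = 0.0015), and none as lower (1.27% and 5.22% of all tested probes). The exosome subunits EXOSC3 (0.88), EXOSC4 (0.69) and EXOSC9 (0.60) and the nuclease EXOSC10 (0.47) differed the same way without reaching the minimum. In R50 against WT+NU6102 the median was -0.44, and -0.06 over all genes. EXOSC3 was called as lower (-1.19, adjusted p = 3.86e-05) and none as higher (3.26% and 7.61% of all tested probes). In CDK2 KO against WT the median was 0.04. What part these genes have in the levels of the LINC and antisense RNAs was not tested.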

How the data were processed

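Total RNA of 8 HCT-116 samples was labelled with Cy3 by linear amplification and hybridised to Agilent 8 × 60k arrays. The authors deposited spot intensity from Agilent Feature Extraction 11.5.1.1, background-subtracted and detrended but not normalized between arrays, and a table of log2 values made with GeneSpring GX and centred per probe, used here as an alternative. From the deposited intensity, log2 of the processed signal minus each array's 75th percentile was taken, outlier spots were left out (31 probes had no usable spot) and spots of a probe were averaged. The 28677 probes well above background on each array of 1 or more groups were fitted with limma 3.58.1 in R 4.3.3 on group means over all 8 arrays, two-sided, with Benjamini-Hochberg adjustment over all tested probes. A bound took, for the dim group, the higher per array of its own signal and the lowest signal well above background. Differences among the 4 groups were tested with limma's F-test at the threshold of the methods' ANOVA. Scripts were tested on simulated data. The number of arrays limits the precision. Gene symbols come from the scanner files, and were matched to RefSeq by accession.

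Genes with several probes were represented by the brightest. Named were, per comparison, the 4 largest rises and falls among called genes above background on all 4 arrays, the 2 largest each way given as bounds (at least N-fold), kept members of the gene lists, and sense partners. Members and lists were chosen with earlier results of these data known. Alternatives were normexp (offset 50), quantile normalization, no filter, all 8 arrays, the deposited log2 values, a trended variance, a replicate block, within-slide fits, the methods' tests, no minimum fold, other probes and leaving out each array. Replicate numbers did not pair the samples, and no columns of the authors' own comparisons were used. The values of 1 listed RNA are not reported here.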

Additional observations from a re-analysis of the deposited data

How the results depend on the processing

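The count of probes differing among the 4 groups (29) was 51 with normexp, 2 with no filter, 47 with a trended variance, 8 with the replicate block, 5 with the methods' ANOVA and 2 to 7 without any 1 array. Calls with normexp were 7 (WT+NU6102 against WT), 0 (CDK2 KO and R50 against WT), 6 (R50 against WT+NU6102) and 0 (R50 against CDK2 KO), where limma gave 70, 54 and 75 probes at an unadjusted p under 0.05 for the 3 counts of 0. On probes above background on all 8 arrays, which are fewer, calls were 0 in CDK2 KO (54 at an unadjusted p under 0.05), 1 in R50 against WT, 17 in R50 against WT+NU6102 and 1 in R50 against CDK2 KO. With no minimum fold, the 5 comparisons in the same order gave 64, 42, 24, 70 and 54. With the methods' t-test after Benjamini-Hochberg they gave 9, 0, 0, 15 and 1, with 55 and 35 at an unadjusted p under 0.05 for the 2 counts of 0. Without any 1 array, the counts ranged over 15 to 22, 3 to 5, 3 to 7, 21 to 32 and 4 to 8. R50 against WT gave 3 without WT replicate 1.

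Same-numbered samples of different groups deviated together by r = -0.028 to 0.045, so the numbers did not pair the samples. With the replicate block the counts were 16, 3, 5, 26 and 4. At other probes of the same gene, LINC00085 gave 0.12 with NU6102, and LINC00087 gave 0.42 with NU6102 and -0.64 in R50 against WT+NU6102, reversing the named direction; the cause was not tested. Of the 26 called values of named genes, no other turned its sign under the alternatives run, 18 lost their call under normexp, and none did with the deposited log2 values. Values that were not called turned sign in places. Dim probes limit the CDK2 KO and R50 calls, and of the 17 calls with NU6102 against WT 7 were kept under normexp.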
